A study of Capra hircus with 6 samples.

Results

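Potassium channel genes were followed in secondary hair follicle dermal papilla cells (SHF-DPCs) of the Albas cashmere goat (Capra hircus), cultured with or without all-trans retinoic acid (ATRA). The genes are those whose symbol starts with KCN, together with the sulfonylurea receptor genes ABCC8 and ABCC9. Of the 15944 genes in the count table, 53 met this rule, and all were found under the same symbol in RefSeq (assembly ARS1.2). RefSeq holds 96 goat entries with such symbols, of which the other 43, ABCC8 among them, were not analysed here. The cells were wild-type primary cultures, labelled as from skin, and all libraries carried the same batch label. The control group (3 libraries) was cultured without ATRA, and the ATRA-treated group (3 libraries) received ATRA at 100 µM for 24 h. Follicles came from 3 animals aged 3 years, and cells of passages 4 to 7 were used in medium with 10% serum. Dose, time and these culture details are from the methods, by which control cells received an equal volume of culture medium. Whether a control and an ATRA-treated library came from the same animal is not given, so the p-values measure the spread between these cultures.

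Potassium channels let potassium leave the cell and so hold the membrane potential negative, which in turn sets the drive for calcium entry, cell volume and secretion. Voltage-gated (Kv) channels open on depolarization, calcium-activated channels open when cytosolic calcium rises, inward rectifiers (Kir) hold the resting potential, and two-pore channels carry a background leak. In the ATP-sensitive (KATP) channel, Kir pores are joined by a sulfonylurea receptor, and this channel is opened by the hair growth drug minoxidil. Most of these channels are built from pore subunits with auxiliary subunits that set their gating or their delivery to the membrane.

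Each control library held 36887160 to 38012771 counts and each ATRA-treated library 35532339 to 36870939, and no pair of replicates agreed within sampling noise. A retinoid-responsive set of 6 genes served as a check of the labels. Its summed level was 86.2 to 95.5 counts per 1e6 counts of the library (CPM) without ATRA and 4135 to 4446 CPM with it. Most of that sum was CYP26B1, at 87.5 and 3842 CPM. DHRS3, RARB and RARRES1 rose as well, whereas the groups overlapped for STRA6 and CYP26A1 had at most 3 counts in any library. Of 13 dermal papilla markers, 8 of the 9 tested were called lower, against 17.3% of all genes tested. SOX2, which was too low to be tested, went the other way. It had 5, 0 and 2 counts in the control libraries and 10, 16 and 9 with ATRA. The summed level of the markers went from between 83850 and 85517 CPM to between 4215 and 4535 CPM. PROM1 (CD133), ALPL and CORIN had at most 1 count in any library, so they give no RNA evidence for the labelled cell type. The study identified the cells by immunofluorescence for α-SMA and CD133 protein, which RNA counts do not measure. Most of the sum came from COL1A1, COL1A2 and VIM, at 27440, 28514 and 19158 CPM in the control group. Markers of other cells went both ways. Keratinocyte markers summed to 3.18 to 4.98 CPM without ATRA and 5.26 to 5.95 CPM with it, where KRT10 rose and the counts over a group went from 44 to 3 for KRT14 and from 12 to 0 for KRT5. Endothelial markers summed to 82.4 to 90.3 and 15.9 to 17.6 CPM, where ERG fell, PECAM1 went from 0 counts to 788 over the group and TEK had a log₂ fold change of 0.87. Melanocyte and Schwann cell markers summed to 100.3 to 105.8 and 70.4 to 77.1 CPM, where S100B fell and MITF rose. Their part in the values below was not tested. CPM values were scaled by TMM, with mean factors of 0.847 for control and 1.18 for ATRA-treated libraries. With division by library size alone, the median log₂ fold change (log₂FC, ATRA against control) of all genes would be 0.52 in place of 0.04, so small changes depend on the scaling.

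ATRA exposure was accompanied by large changes in both directions among the potassium channel genes. Of the 53 genes, 23 had enough counts to be tested, 7 were called higher and 8 were called lower with ATRA. KCNMB1, KCNIP4 and KCNMB4, which encode auxiliary subunits, had the largest falls. The genes that rose included KCNN3, KCNAB3 and KCNJ4. A gene was called when |log₂FC| exceeded 1 and the p-value of edgeR's quasi-likelihood test, adjusted over all 12588 genes tested, was under 0.05. Over all genes tested, 13.7% were called higher and 17.3% lower. Without the fold threshold, 7 potassium channel genes were higher, 10 were lower (KCNAB2 and KCNK6 in addition) and 6 did not pass, against 40.9% and 38.7% of all genes. The sign of KCNAB2 and KCNK6 depended on the scaling, with log₂FC of 0.04 and 0.30 after division by library size alone. In 7 of the 23 genes every ATRA-treated library lay above every control library and in 10 below, against 41.2% and 39% of all genes. The median log₂FC of the 23 genes was -0.09, and the median size of the change was 1.75, against 0.59 over all genes. These shares and medians cannot be read as a property of the family, since 8 of the 23, KCNA3, KCNAB3, KCNH7, KCNIP4, KCNJ4, KCNMB1 and KCNN3 among them, entered the test only through the group in which they were high. Among the other 15 genes, 3 were called higher and 4 lower.

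**Figure D1:**
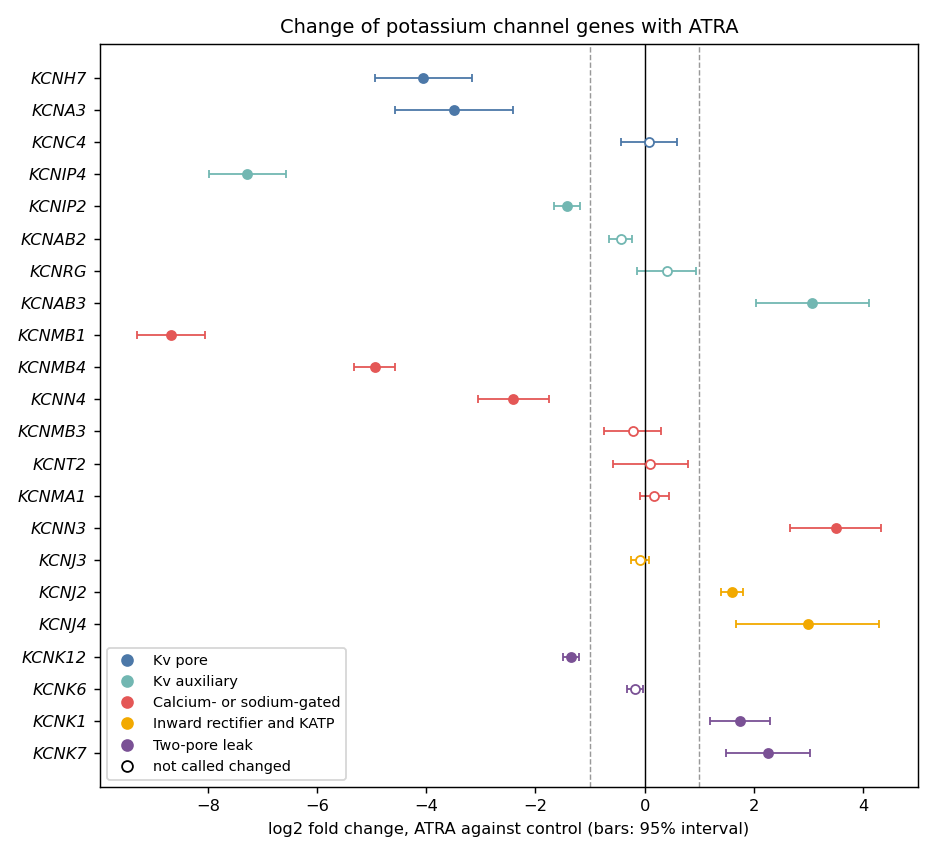
Log₂FC of 22 tested potassium channel genes, ATRA against control, with 95% intervals from edgeR's fit, coloured by channel class (3 libraries per group). Filled points mark 14 genes called changed and open points the 8 not called, and the dashed lines stand at a log₂FC of -1 and 1. The estimate farthest below 0 is that of KCNMB1, at -8.68, and KCNN3 stands at 3.50.

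Most of the 17 Kv pore genes had almost no counts in these cells, and KCNH7 and KCNA3 fell. KCNC4, a fast-inactivating pore, did not pass the test. Its level was 1.38 ± 0.319 CPM in the control group and 1.46 ± 0.233 CPM with ATRA (mean ± SD, n = 3), with a 95% interval of the log₂FC from -0.44 to 0.60.

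KCNH7 encodes a pore of the ether-a-go-go-related type. It measured 1.45, 1.79 and 2.33 CPM in the control libraries and 0.0925, 0.204 and 0.0242 CPM in the ATRA-treated libraries. The groups did not overlap, and KCNH7 fell with a log₂FC of -4.06 (SE 0.422, adjusted p = 6.62e-08), or -4.91 without ATRA replicate 2. KCNA3 encodes Kv1.3, best known as the delayed rectifier of T lymphocytes. Its level was 0.741, 0.958 and 1.03 CPM in the control libraries and 0.139, 0 and 0.0967 CPM in the ATRA-treated libraries. ATRA replicate 2 held no KCNA3 count, and the highest ATRA-treated library lay below the lowest control library. The log₂FC was -3.49 (SE 0.516, adjusted p = 6.10e-06), and -4.19 without ATRA replicate 1. The leukocyte markers CD68 and CD14 rose in the same libraries, and the summed level of 5 leukocyte markers went from between 9.27 and 12.9 CPM to between 41.3 and 44.2 CPM. Nearly all of that sum came from CD68 (4.14 and 11.0 CPM) and CD14 (6.91 and 31.3 CPM). CSF1R had 12 and 15 counts over the control and ATRA-treated groups, and ITGAM had 1 and 3. PTPRC and CD79A were not among the counted genes. CD3E, a T cell marker, held 2 counts over the control group and 10 over the ATRA-treated group. The part of leukocytes in the KCNA3 values was not tested.

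Of the 13 Kv pore genes not tested, KCND3 (Kv4.3) had the most counts, with 3, 8 and 4 in the control libraries and 2, 3 and 2 with ATRA. KCNH2 and KCNH3 reached 4 and 2 counts in their highest library. KCNA7, KCNC1, KCNH1, KCNH6, KCNH8, KCNQ1, KCNQ3 and KCNQ5 never exceeded 2 counts. For KCND3 the groups did not overlap, and the ratio of its pooled counts was 0.346, with a counting interval from 0.119 to 0.902. The others were too low to compare at this depth, where 1 count was worth about 0.0268 CPM.

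Among 8 auxiliary genes of Kv channels, both tested members of the KChIP group fell and 1 Kvβ gene rose. KChIPs are calcium-binding proteins that attach to Kv4 pores and raise their surface expression. KCNIP4 measured 6.41, 8.53 and 8.28 CPM in the control libraries and 0.0694, 0 and 0.0725 CPM in the ATRA-treated libraries. Only 6 counts remained over the ATRA-treated group, against 199 or more in each control library. KCNIP4 had a log₂FC of -7.28 (SE 0.336, adjusted p = 4.17e-13), and its pooled level was 166-fold lower, with a counting interval from 76.1 to 455. KCNIP2 measured 13.2, 11.5 and 12.7 CPM in the control libraries and 4.70, 4.85 and 4.42 CPM with ATRA. All 3 ATRA-treated libraries lay well below the control range, at a log₂FC of -1.42 (SE 0.113, adjusted p = 1.41e-09), a level 2.68-fold lower. With division by library size alone it was -0.94, within the fold threshold. Of the Kv4 pores, only KCND3 was analysed here, at 8 counts or fewer per library. KCNIP1, another KChIP gene, had at most 1 count in any library.

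The Kvβ proteins are cytosolic partners of Kv1 pores with an oxidoreductase fold. KCNAB3 measured 0.129, 0.0309 and 0.125 CPM in the control libraries and 0.625, 0.748 and 1.09 CPM with ATRA. The control libraries held 4, 1 and 4 counts, and the ATRA-treated libraries 27, 33 and 45. KCNAB3 rose with a log₂FC of 3.07 (SE 0.489, adjusted p = 1.48e-05). KCNAB2 measured 13.2, 12.4 and 13.9 CPM in the control libraries and 10.5, 9.27 and 9.38 CPM with ATRA. The groups did not overlap, but the log₂FC of -0.44 (95% interval -0.65 to -0.23, adjusted p = 0.000549) stayed within the fold threshold and was 0.04 with division by library size alone. KCNRG, a cytosolic protein that interferes with Kv channel assembly, did not pass the test, with a log₂FC of 0.40 (95% interval -0.14 to 0.94), but passed it at 0.88 (adjusted p = 0.00454) with division by library size alone. KCNRG overlaps a noncoding RNA in ARS1.2, and counting is not stated to have used strand, so its reads are uncertain. KCNAB1 and KCNE1 had at most 2 counts in any library.

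**Figure D2:**
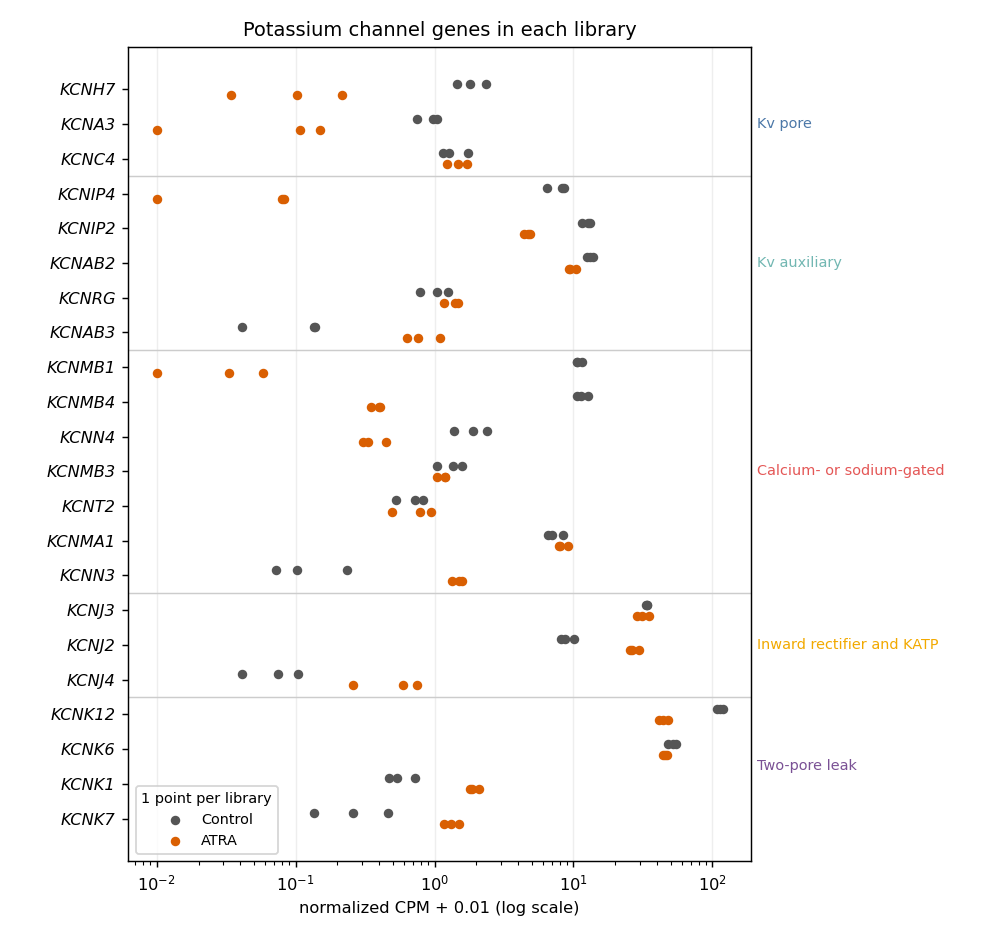
Normalized CPM plus 0.01, on a log axis, of 22 tested potassium channel genes in each of the 6 libraries, grouped by channel class, with grey points for control and orange points for ATRA-treated libraries. The points of the 2 groups are apart for 16 genes and overlap for 6, and a point at 0.01 stands for a library with no count.

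Of the large-conductance calcium-activated (BK) channel genes, 2 of the 3 tested β subunit genes fell, while the other one and the pore gene did not pass the test. KCNMA1, the BK pore, measured 7.06, 6.55 and 8.41 CPM in the control libraries and 7.94, 9.07 and 7.90 CPM with ATRA. The groups overlapped, and the test was not passed, with a log₂FC of 0.18 (95% interval -0.08 to 0.44, adjusted p = 0.187). With division by library size alone it was 0.66 (adjusted p = 0.000132). KCNMB1 encodes β1, the subunit that raises the calcium sensitivity of BK channels in smooth muscle. It measured 10.6, 10.6 and 11.5 CPM in the control libraries and 0.0231, 0 and 0.0483 CPM with ATRA. The counts were 330, 343 and 371 without ATRA and 1, 0 and 2 with it, so the transcript was close to the detection limit in every ATRA-treated library. KCNMB1 had a log₂FC of -8.68 (SE 0.295, adjusted p = 4.04e-15), and -9.53 without ATRA replicate 3. The pooled level was 469-fold lower, with a counting interval from 160 to 2278.

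KCNMB4 encodes β4, the BK subunit best known from neurons, where it slows channel gating. Its level was 10.6, 12.8 and 11.4 CPM in the control libraries and 0.393, 0.340 and 0.387 CPM with ATRA. The fall was of similar size in every library, with a log₂FC of -4.95 (SE 0.179, adjusted p = 1.03e-14), a level 30.8-fold lower. KCNMB3, which encodes β3, did not pass the test, at 1.32 ± 0.274 CPM in the control group and 1.13 ± 0.0810 CPM with ATRA (mean ± SD, n = 3). Its log₂FC was -0.22 (95% interval -0.74 to 0.31). KCNMB3 overlaps ZNF639 and PIK3CA in ARS1.2, so its counts are uncertain. KCNMB4 overlaps a pseudogene there, and so does KCNH7, so reads of these genes could also be split.

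Ratios of raw counts within a library do not depend on the scaling between libraries. KCNMB1 counts per KCNMA1 count were 1.51, 1.62 and 1.37 in the control libraries and 0.00292, 0 and 0.00612 with ATRA. KCNMB4 counts per KCNMA1 count were 1.50, 1.95 and 1.36 in the control libraries and 0.0496, 0.0375 and 0.0489 with ATRA, a 35.3-fold lower mean. For both subunits the groups were far apart. KCNMB3 counts per KCNMA1 count were 0.182 ± 0.0512 in the control group and 0.137 ± 0.0104 with ATRA, and the groups overlapped. Among 5 such ratios, chosen after the values were seen, the exact permutation test (two-sided) gave p = 0.1 for 4, the smallest value that 3 against 3 libraries allow, and p = 0.2 for KCNMB3, or 0.125 and 0.2 after Benjamini-Hochberg adjustment. These are ratios of reads and not of transcripts, because gene length was not used.

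**Figure D3:**
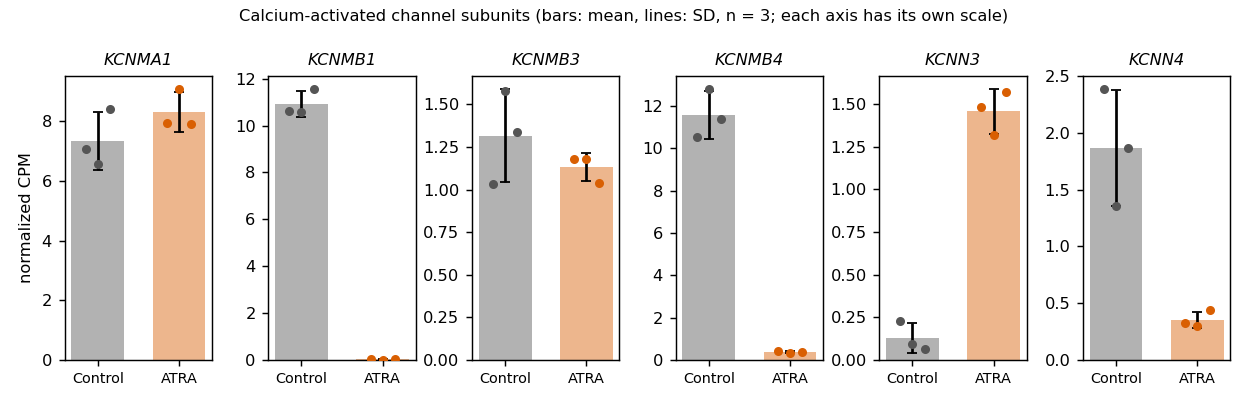
Normalized CPM of 6 calcium-activated channel genes without and with ATRA, with bars for the mean, lines for the SD and points for single libraries (n = 3), each panel on its own axis from 0. The BK pore KCNMA1 stood at similar levels in both groups, whereas KCNMB1 and KCNMB4 were near 0 with ATRA and KCNN3 and KCNN4 stood on opposite sides.

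KCNMB1 belongs to the contractile program of smooth muscle, and other genes of that program moved in the same libraries. Of 10 smooth muscle and pericyte markers, 8 were tested and 6 were called lower, with a median log₂FC of -1.80, against 17.3% of all genes called lower. Their summed level went from between 989 and 1050 CPM to between 226 and 239 CPM. CNN1 went from 141 to 2.91 CPM and LMOD1 from 111 to 2.81 CPM. ACTA2, which also marks cultured dermal papilla cells, went from 6582 to 8.37 CPM. MYH11 and RGS5 were near 0 in both groups, with 35 and 40 MYH11 counts and 5 and 0 RGS5 counts over the control and ATRA-treated libraries. Other members of the list were abundant in the control group. CSPG4 went from 381 to 14.4 CPM, NOTCH3 from 78.3 to 19.6 CPM and PDGFRB from 206 to 152 CPM. The part of these changes in the KCNMB1 values was not tested, and in bulk RNA fewer cells of a type and less RNA per cell cannot be told apart.

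The small- and intermediate-conductance calcium-activated channels, which are gated by calmodulin and not by voltage, moved in opposite directions. KCNN3 (SK3) measured 0.226, 0.0927 and 0.0623 CPM in the control libraries and 1.48, 1.31 and 1.57 CPM with ATRA. Its counts were 7, 3 and 2 without ATRA and 64, 58 and 65 with it. KCNN3 rose with a log₂FC of 3.50 (SE 0.396, adjusted p = 2.10e-07), and 4.17 without control replicate 1. KCNN4, the intermediate-conductance channel of lymphocytes, red cells and proliferating fibroblasts, measured 2.38, 1.36 and 1.87 CPM in the control libraries and 0.324, 0.295 and 0.435 CPM with ATRA. Every ATRA-treated library lay below the control range, with a log₂FC of -2.40 (SE 0.309, adjusted p = 1.06e-06). KCNN3 counts per KCNN4 count were 0.0946, 0.0682 and 0.0333 in the control libraries and 4.57, 4.46 and 3.61 with ATRA, so KCNN4 had the more reads in each control library and KCNN3 in each ATRA-treated library. KCNN1 (SK1) was not tested, with 4 to 8 counts in the control libraries and 5 or 6 with ATRA. The sodium-activated KCNT2 (Slick) did not pass the test, at a log₂FC of 0.10 (95% interval -0.59 to 0.79), and KCNT1 had at most 4 counts.

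Among the 12 genes for inward rectifiers and KATP subunits, both genes called changed were strong inward rectifiers of the Kir2 group, and both rose. KCNJ2 (Kir2.1) sets the resting potential in heart and skeletal muscle. It measured 8.12, 10.1 and 8.75 CPM in the control libraries and 25.5, 29.7 and 26.5 CPM with ATRA. The lowest ATRA-treated library stood far above the highest control library, and the level was 3.03-fold higher, with a log₂FC of 1.60 (SE 0.0989, adjusted p = 3.59e-11). KCNJ4 (Kir2.3) measured 0.0644, 0.0309 and 0.0934 CPM in the control libraries and 0.740, 0.249 and 0.580 CPM with ATRA. It had 2, 1 and 3 counts in the control group and 32, 11 and 24 with ATRA, a log₂FC of 2.99 (SE 0.622, adjusted p = 0.000259). With R's t.test function on log₂(CPM + 1), the test named in the study's methods, its adjusted p was 0.0889. KCNJ14 (Kir2.4) was not tested, with 3, 5 and 4 counts in the control libraries and 16, 9 and 16 with ATRA. KCNJ12 (Kir2.2) had at most 3 counts.

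KCNJ3 encodes Kir3.1, a pore opened by G protein βγ subunits that needs a partner Kir3 subunit to reach the membrane as a working channel. Its level was 33.9, 33.5 and 33.7 CPM in the control libraries and 31.3, 35.2 and 28.7 CPM with ATRA. The control libraries lay inside the range of the ATRA-treated libraries, and the test was not passed, with a log₂FC of -0.09 (95% interval -0.25 to 0.08, adjusted p = 0.331). Without ATRA replicate 2 it was -0.18 (adjusted p = 0.0328), and with division by library size alone 0.39 (adjusted p = 0.000388). Of its partner genes, KCNJ5 had 1 count in all and KCNJ9 had none in the control group and 2, 6 and 2 with ATRA. Against a floor of 3 counts over the control group, the KCNJ9 level was 2.47-fold higher. The counting interval of its ratio, without that floor, starts at 1.66.

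The KATP subunits were scarce. ABCC9 encodes SUR2, the receptor subunit of the muscle-type KATP channel. It had 0, 1 and 0 counts in the control libraries and 5, 10 and 13 with ATRA. It was too low for the test, and the ratio of its pooled counts was 20.8, with a counting interval from 3.44 to 850. KCNJ8 (Kir6.1), its pore partner and its neighbour in ARS1.2, had no count in the control group and 1, 0 and 1 with ATRA. KCNJ10, a glial and renal inward rectifier, had no count in the control group and 1, 4 and 1 with ATRA, and KCNJ15 and KCNJ16 had at most 3 counts in any library.

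Two-pore channel genes held the largest share of the reads on potassium channel genes in both groups, and of the 4 tested, KCNK1 and KCNK7 rose and KCNK12 fell. KCNK12 encodes THIK-2, a subunit that carries little current on its own. It measured 118, 108 and 113 CPM in the control libraries and 48.1, 41.1 and 43.9 CPM with ATRA. KCNK12 fell in every ATRA-treated library to well under the control range, 2.55-fold lower, with a log₂FC of -1.35 (SE 0.0686, adjusted p = 1.87e-12). With division by library size alone it was -0.87, which is within the fold threshold. KCNK6 encodes TWIK-2, a weak inward rectifier found on endosomes and lysosomes as well as at the cell surface. It measured 52.4, 47.6 and 54.9 CPM in the control libraries and 44.4, 45.6 and 47.3 CPM with ATRA. The highest ATRA-treated library almost reached the lowest control library, and the log₂FC was -0.17 (95% interval -0.32 to -0.03, adjusted p = 0.0299). With upper-quartile scaling it was -0.10 (adjusted p = 0.199), and with division by library size alone 0.30 (adjusted p = 0.000690), so no direction is given for KCNK6.

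The related KCNK1 and KCNK7 rose from low levels. KCNK1 (TWIK-1) measured 0.709, 0.464 and 0.529 CPM in the control libraries and 1.85, 1.79 and 2.08 CPM with ATRA. Every ATRA-treated library had more than the highest control library, with a log₂FC of 1.75 (SE 0.262, adjusted p = 7.59e-06). KCNK7, a TWIK relative that gives no current by itself in expression systems, measured 0.451, 0.247 and 0.125 CPM in the control libraries and 1.48, 1.16 and 1.30 CPM with ATRA. The counts were 14, 8 and 4 without ATRA and 64, 51 and 54 with it, with a log₂FC of 2.25 (SE 0.365, adjusted p = 1.79e-05). KCNK13 (THIK-1), the closest relative of KCNK12, had no count in the control group and 0, 2 and 8 with ATRA, so the groups overlapped and most of its counts came from ATRA replicate 3. KCNK4 (TRAAK) and KCNK9 (TASK-3) had no control count and at most 4 counts in an ATRA-treated library.

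Summed over the 53 genes, the normalized level was 272 to 288 CPM in the control group and 185 to 191 CPM with ATRA, and 239 ± 6.51 against 222 ± 6.45 CPM (mean ± SD, n = 3) with division by library size alone. The 5 genes with the most reads, KCNK12, KCNK6, KCNJ3, KCNJ2 and KCNAB2, took 77.7 to 79.3% of these counts in the control libraries and 84.3 to 84.8% with ATRA. The share of KCNK12 went from 40.1% ± 1.30 to 23.6% ± 1.98 and that of KCNJ2 from 3.20% ± 0.455 to 14.5% ± 1.02 (SD, n = 3). KCNJ2 counts per KCNK12 count, a ratio free of scaling, were 0.0685, 0.0937 and 0.0777 in the control libraries and 0.531, 0.722 and 0.604 with ATRA. By class, inward rectifiers and KATP subunits went from 15.3% ± 0.763 to 32.0% ± 2.18, calcium- or sodium-gated channels from 12.1% ± 0.534 to 6.66% ± 0.311 and two-pore channels from 58.7% ± 1.51 to 49.8% ± 2.30. The groups did not overlap for any of these shares, and the exact permutation test (two-sided) gave p = 0.1 for each, the smallest value this design allows. The shares are tied to each other, because a lower share of KCNK12 leaves a larger share to the other genes. The share of KCNJ3 went from 12.0% ± 0.326 to 16.9% ± 1.49, though its mean level was 33.7 CPM in the control group and 31.7 CPM with ATRA.

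**Figure D4:**
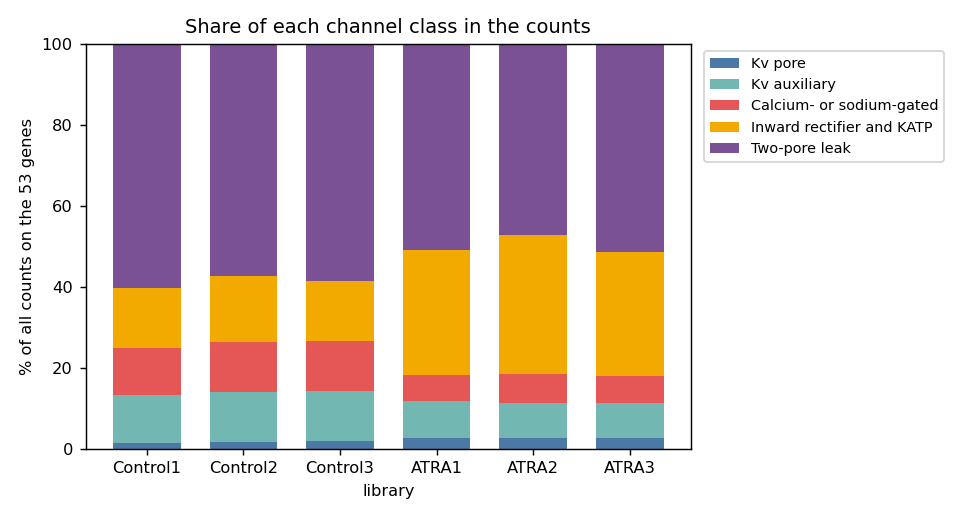
Share of the counts on the 53 potassium channel genes that fell on each channel class, in percent, for the 6 libraries. In each ATRA-treated library the share of inward rectifiers and KATP subunits was between 30.6 and 34.5%, above the 14.8 to 16.2% of the control libraries, and the share of calcium- or sodium-gated channels was lower. The shares within a library are tied, so a class can gain share without a higher level.

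Of the 53 genes, 30 were not tested, and they added 26 to 30 counts in all to each control library and 48 to 67 to each ATRA-treated library. In 19 of them no library had more than 3 counts. The number of potassium channel genes with at least 1 count was 32 to 35 in the control libraries and 36 to 42 with ATRA. Of the 30 genes, 14 had no count in any control library and 3 had none in any ATRA-treated library. These are raw counts, and 1 count stood for 0.0309 to 0.0322 CPM in the control libraries and 0.0227 to 0.0242 CPM with ATRA. A gene at the same normalized level thus gives more counts with ATRA. The same numbers over all genes are not given here, so no gain of detected channel genes is read from them.

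Partner proteins, potassium pumps and calcium channels were read from the same fit. Of 21 genes for related or associated subunits, 13 were tested, 4 were called higher and 2 lower, with a median log₂FC of 0.25, against 13.7% and 17.3% of all genes called. The largest changes were in AMIGO1, a membrane partner of Kv channels (log₂FC 2.34, SE 0.299), in TMEM38A and TMEM38B, the cation channels of the endoplasmic reticulum (log₂FC 1.41 for both), and in the volume-regulated anion channel. Of the subunits of that channel, LRRC8C rose from 9.69 ± 0.698 to 37.4 ± 4.31 CPM, whereas LRRC8D and LRRC8B fell with log₂FC of -1.28 (SE 0.106) and -1.22 (SE 0.146). Of 22 pump and cotransporter genes, 9 were tested, 1 was called higher and 3 lower, with a median log₂FC of 0.32, against the same shares of all genes. SLC12A4, the potassium-chloride cotransporter KCC1, rose from 159 ± 4.07 to 366 ± 8.09 CPM. FXYD5, ATP1B1 and ATP1B3, which encode partner subunits of the sodium pump, fell with log₂FC of -1.14, -1.13 and -1.04. With division by library size alone, LRRC8D, LRRC8B, FXYD5, ATP1B1 and ATP1B3 were at -0.80, -0.74, -0.66, -0.65 and -0.56, within the fold threshold.

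Of 31 calcium entry genes, 22 were tested, 4 were called higher and 2 lower, with a median log₂FC of -0.16, against 13.7% and 17.3% of all genes called. CACNA1C, the L-type pore of smooth and cardiac muscle, fell from 3.14 ± 0.914 to 0.547 ± 0.205 CPM. CACNA1G, a T-type pore, rose from 52.9 ± 3.89 to 179 ± 8.54 CPM (log₂FC 1.76, SE 0.0659, adjusted p = 1.73e-14). The auxiliary genes CACNA2D2 and CACNB4 rose from under 0.5 CPM in every control library, with log₂FC of 2.72 (SE 0.693) and 1.52 (SE 0.424), the latter 2.26 without control replicate 1.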

How the data were processed

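Poly(A) RNA of 6 libraries of goat SHF-DPCs was sequenced. According to the methods and the submitters' processing notes, the authors cleaned reads with fastp and TrimGalore v0.6.6. HISAT2, featureCounts and DESeq2 are also named in those notes, with no role or version. The genome build and annotation are not given in the sources used here. The authors deposited raw read counts per gene, without normalization, for 15944 genes.

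Counts were filtered by filterByExpr (12588 genes kept), scaled by TMM and fitted in edgeR by its quasi-likelihood test (robust, two-sided, no covariate), with Benjamini-Hochberg adjustment over all genes tested. Log₂FC uses a prior count of 0.125. Its SE is |log₂FC| over the square root of F. Normalized CPM is the count per 1e6 of the TMM-scaled library size. A ratio of pooled counts carries an exact 95% interval for counting error, and a group without a count was set to a floor of 3 counts over the group. The members, families and gene lists were chosen with earlier results of these data known. Values per library are given for called genes without overlap, up to 15 per direction, and for the 5 genes with the highest mean CPM, and up to 3 called genes per direction are named from each other list. Results for some genes under this rule are not reported here, though counts and sums include them. Results were recomputed with each library left out, with other scalings, filters and thresholds, with a pseudocount of 1, with the replicate block, with DESeq2 and with R's t.test function on log₂(CPM + 1). The fits were tested on simulated data. The library-size values of the other lists were added after seeing the data. RefSeq ARS1.2 was used for names, neighbours and overlaps, and no coordinates or sequences are given. Versions were R 4.3.3, edgeR 4.0.16, DESeq2 1.42.0, Python 3.11.15, scipy 1.17.1 and matplotlib 3.10.9.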

Additional observations from a re-analysis of the deposited data

How the results depend on the processing

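The 7 genes called higher became 3 with R's t.test function, whose log₂(CPM + 1) scale shrinks the change of low genes, and 11 with no filter, which added ABCC9, KCNJ14, KCNJ9 and KCNK13. The other settings gave 5 to 7 higher for filters, scalings and thresholds and 7 to 9 with 1 library left out. The 8 genes called lower stayed between 6 and 10, the 6 with division by library size alone (KCNK12 at -0.87 and KCNIP2 at -0.94 were no longer called) and with |log₂FC| above 2. Of the 15 called genes, 14 kept their direction and an adjusted p under 0.05 in every refit that tested them, and KCNJ4 missed it with R's t.test function. KCNA3, KCNAB3 and KCNJ4 were not tested with the filter of a CPM of at least 1 in 3 libraries. The median log₂FC of -0.09 was -0.11 with DESeq2 and with RLE scaling, -0.00864 with upper-quartile scaling and 0.39 with division by library size alone, and ran from -0.18 (without ATRA replicate 2) to -0.026 (without ATRA replicate 3). Division by library size alone also turned KCNAB2 to 0.037, KCNJ3 to 0.39, KCNK6 to 0.30 and KCNMB3 to 0.26, and brought KCNC4 (0.56), KCNMA1 (0.66) and KCNRG (0.88) past an adjusted p of 0.05. With 1 library left out, KCNC4 ran from -0.046 (without control replicate 2) to 0.28 and was also below 0 without ATRA replicate 1, at -0.041, while KCNT2 ran from -0.12 (without ATRA replicate 2) to 0.32 and was -0.065 without control replicate 1. With a pseudocount of 1 the log₂FC of KCNMB1 was -3.54 and that of KCNIP4 -3.06. Same-numbered libraries did not deviate together (correlations 0.0892, 0.0299 and -0.0764), and with the replicate number as a block 7 genes were called higher and 8 lower. At this depth, genes with a few counts per library carry wide intervals, and genes not tested have counts or counting intervals only.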
